A study of Mus musculus with 6 samples.

Results

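Hepatic stellate cells are recognised by a small set of genes, and 10 of these identity markers are described here in cells with and without Sept4: Cygb, Colec11, Hgf, Ecm1, Des, Nes, Reln, Ngfr, Vipr1 and Angptl6. The rule takes probes by gene symbol and uses no measured value, although the symbols were listed with earlier results of these data known. Each gene had 1 probe, so the set is 10 of 23473 probes on the array, or 10 of 16446 different gene symbols. The wild-type group was 3 arrays of stellate cells (WT 1 to 3), and the knockout group was 3 arrays of stellate cells from mice labelled SEPT4-KO (KO 1 to 3), which lack the septin gene Sept4. Both groups carried the same disease, a liver cirrhosis produced with the hepatotoxin carbon tetrachloride (CCl4), so there is no uninjured control. The sources used here do not give the strain, age or sex of the mice, the kind of knockout allele, the CCl4 schedule or how the cells were isolated. Signals are the deposited normalised values on a log2 scale, where a difference of 1 is a doubling.

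Stellate cells are the pericytes of the hepatic sinusoid. In the healthy liver they store vitamin A as retinyl ester and carry both mesenchymal and neural genes, and after injury they turn into contractile, collagen-producing myofibroblasts. The markers described here fall into 3 kinds: proteins that stay in the cell (the globin Cygb and the intermediate filaments desmin and nestin), secreted proteins (Colec11, Hgf, Ecm1, Reln and Angptl6) and cell-surface receptors (Ngfr and Vipr1).

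All 6 arrays had a median of 5.02, and on each array 940 to 1255 probes shared the lowest value. Across probes, which are not independent replicates, Pearson's r was 0.986 within wild type, 0.981 to 0.982 within knockout and 0.967 to 0.971 between them. No probe is annotated to Sept4, so the genotype labels could not be checked with the deleted gene. No label says that the arrays of a genotype are separate isolations, and p-values then reflect only how far these samples vary, possibly for technical reasons. The highest value of an array was 15.68 to 15.79 in wild type and 16.63 to 16.79 in the knockout, so genotype coincided with the scale of the arrays. The labels do not say if both genotypes went through the laboratory together, and processing and genotype cannot be told apart. In bulk RNA, fewer cells of a type and less RNA per cell cannot be told apart either.

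The design sets stellate cells without Sept4 against wild-type ones after CCl4 injury. The set split. Cygb, Colec11, Hgf and Ecm1 rose in the knockout, Des and Nes fell, and Vipr1, Angptl6, Ngfr and Reln did not pass the test. The test was limma's moderated fit over all probes, with an adjusted p (Benjamini-Hochberg over all 23473 probes) of 0.05 as the threshold. By that rule 42.7% of all probes differed between the genotypes, 26.7% higher and 16% lower in the knockout, so 4 of 10 higher and 2 of 10 lower is not far from the share among all probes. The median difference of the markers was 0.47 on the log2 scale, and that of all probes was 0.12. Whether a marker passed also went with its brightness: the 6 that passed had means above 6, in bands of signal (6 to 8, 8 to 10 and 10 to 12) where 64.4%, 69.3% and 70.8% of all probes passed, and the other 4 lay in bands (2 to 4 and 4 to 6) where 19.1% and 44.2% did. An exact two-sided permutation test of 3 arrays against 3 cannot give a p below 0.1, and it gave 0.1 for 9 of the markers and 0.9 for Ngfr. For those 9 the arrays of the genotypes did not overlap, 6 with the knockout above and 3 below, and the same was true of 56.2% of all probes, 34.5% with the knockout above and 21.7% below.

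**Figure D1:**
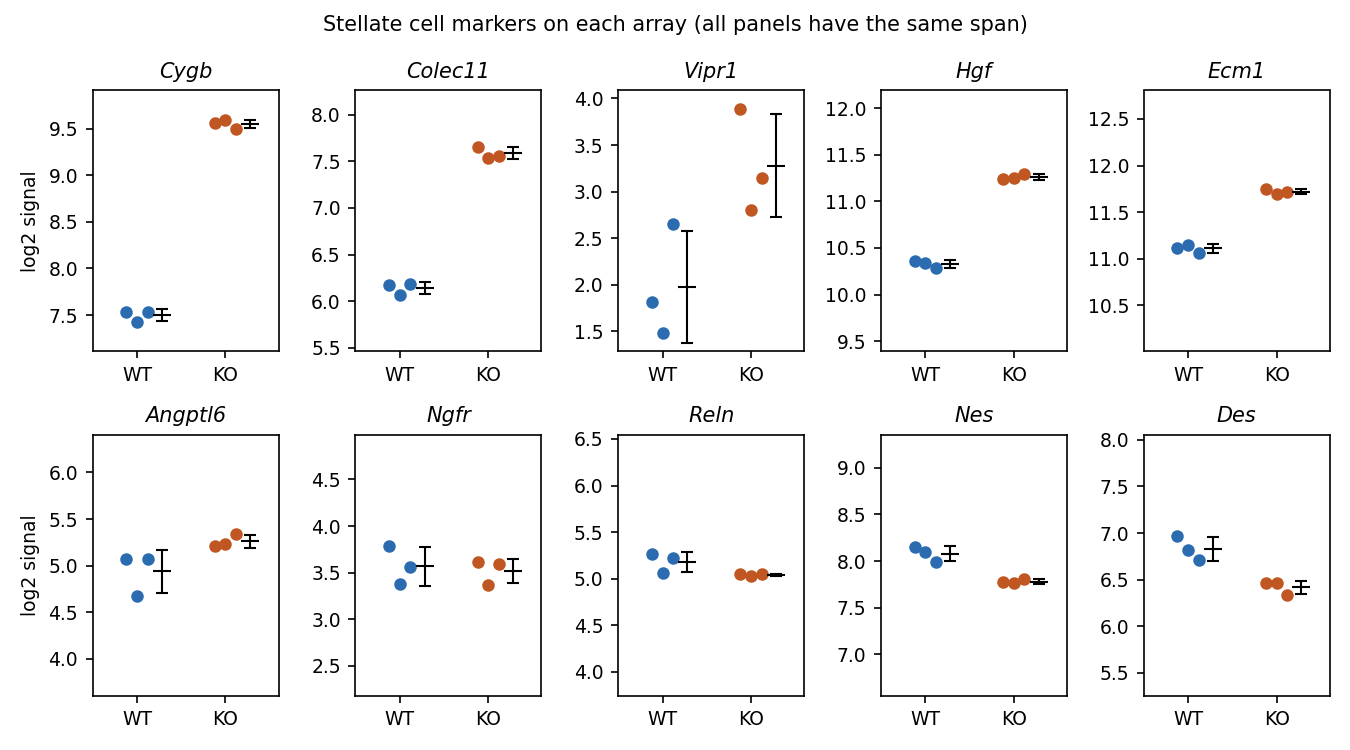
Log2 signal of the 10 markers on each array, ordered by difference, with wild type (WT) in blue and Sept4 knockout (KO) in orange. Points are single arrays, the bar beside them is the mean ± SD (n = 3), and all panels have the same span. The groups lie far apart for Cygb (7.50 against 9.55) and Colec11 (6.14 against 7.59), and they overlap only for Ngfr.

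For Colec11, Hgf and Ecm1, which rose, and for Des and Nes, which fell, the 250 bases before the annotated transcription start are printed here, as the sequence nearest to the transcription of the markers that changed. They are from RefSeq on GRCm38.p6, 5′ to 3′ on the strand of the gene, with matches to the GC box (GGGCGG), the TATA box (TATAAA) and the AP-1 motif (TGANTCA) on either strand in capitals. Some starts lie inside the span of a longer transcript model, as the whole Ecm1 window does.
Colec11, chr12:28623331-28623580 (- strand): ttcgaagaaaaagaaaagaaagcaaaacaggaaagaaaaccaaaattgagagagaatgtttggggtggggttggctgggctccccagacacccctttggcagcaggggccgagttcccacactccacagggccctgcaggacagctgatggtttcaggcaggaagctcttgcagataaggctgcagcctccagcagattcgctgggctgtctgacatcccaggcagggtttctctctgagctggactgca
Hgf, chr5:16553245-16553494 (+ strand): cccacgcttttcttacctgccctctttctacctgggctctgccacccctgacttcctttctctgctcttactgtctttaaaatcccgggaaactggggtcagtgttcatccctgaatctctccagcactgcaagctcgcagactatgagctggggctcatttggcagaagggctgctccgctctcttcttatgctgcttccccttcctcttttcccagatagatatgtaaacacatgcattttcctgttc
Ecm1, chr3:95739570-95739819 (- strand): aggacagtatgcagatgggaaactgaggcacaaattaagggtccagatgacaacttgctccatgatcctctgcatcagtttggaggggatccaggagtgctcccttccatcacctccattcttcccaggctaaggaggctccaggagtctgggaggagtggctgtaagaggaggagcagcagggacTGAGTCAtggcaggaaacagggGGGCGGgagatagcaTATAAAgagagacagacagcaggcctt
Des, chr1:75360042-75360291 (+ strand): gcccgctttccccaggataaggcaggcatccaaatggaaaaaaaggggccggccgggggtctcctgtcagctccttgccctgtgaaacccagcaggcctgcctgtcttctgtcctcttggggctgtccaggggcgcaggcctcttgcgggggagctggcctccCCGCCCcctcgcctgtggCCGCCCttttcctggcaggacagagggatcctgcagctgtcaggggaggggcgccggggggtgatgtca
Nes, chr3:87970843-87971092 (+ strand): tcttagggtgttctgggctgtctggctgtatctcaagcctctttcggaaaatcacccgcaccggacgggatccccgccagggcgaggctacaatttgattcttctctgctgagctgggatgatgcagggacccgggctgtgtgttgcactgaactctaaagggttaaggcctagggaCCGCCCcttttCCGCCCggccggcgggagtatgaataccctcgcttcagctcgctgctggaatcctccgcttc
The Colec11 and Hgf windows held none of these 3 motifs. The Ecm1 window held 1 of each, with the TATA box 27 to 22 bases and the AP-1 motif 64 to 58 bases before the start. Des and Nes had 2 GC boxes each. Among 32851 windows of this length in the RefSeq table, 32.7% held a GC box, 12.4% a TATA box and 6.75% an AP-1 motif. None of the matches in these windows overlapped another. E-boxes (CANNTG), found in 66.2% of windows, were present for Colec11, Hgf, Ecm1 and Des but not for Nes, and the CArG box of serum response factor (1.47% of windows) and the TEAD motif (GGAATG, 12.6%) were present in none of the 5. The nuclear receptor element AGGTCA (14%) was also absent from these windows. The 3 windows of genes that rose held 3 (Colec11), 4 (Hgf) and 1 (Ecm1) CpG dinucleotides, and those of the genes that fell 10 (Des) and 15 (Nes), against a median of 6 over all windows. Among the markers that did not pass, Reln had 37, Vipr1 30, Ngfr 16 and Angptl6 3. These matches are a description of the letters, and a gene may have other starts. Hgf has a further annotated start, whose window held 5 CpG dinucleotides. Cygb, which rose most, had no window among the sequences used, so the CpG counts of the genes that rose leave it out.

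Of the proteins that stay in the cell, the globin and the filaments went opposite ways. Cytoglobin (Cygb) is a haem protein of the globin family that binds oxygen and scavenges nitric oxide, and it marks stellate cells against portal fibroblasts. Its probe read 7.53, 7.43 and 7.53 on the wild-type arrays and 9.56, 9.59 and 9.50 on the knockout arrays. The lowest knockout array stood 1.97 above the highest wild-type array, while the arrays of a genotype spread over at most 0.10. The difference was 2.05 ± 0.05 (SE) on the log2 scale, with a 95% confidence interval of 1.91 to 2.19 and an adjusted p of 0.000214 in limma. That is 4.15-fold, and only 0.558% of all probes differed further in this direction. Of the other globins listed, myoglobin (Mb) and neuroglobin (Ngb) were measured, both dim. Mb rose by 0.44 (adjusted p 0.0319) and passed under 9 of 15 alternative settings, and Ngb differed by -0.06 (adjusted p 0.847).

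Desmin (Des) is the intermediate filament of muscle and the classical stain for rodent stellate cells. It read 6.97, 6.82 and 6.71 in wild type and 6.46, 6.46 and 6.34 in the knockout. All knockout arrays were lower than all wild-type arrays, by a gap of 0.25, which equals the spread among the wild-type arrays. The difference was -0.41 ± 0.08 (SE), with an interval of -0.63 to -0.20 and an adjusted p of 0.0141 in limma.

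Nestin (Nes), an intermediate filament of neural progenitors that activated stellate cells also make, read 8.15, 8.10 and 7.99 in wild type and 7.77, 7.76 and 7.81 in the knockout. Here too the groups did not overlap, and the gap was 0.18 against a spread of 0.16 among the wild-type arrays. The difference was -0.30 ± 0.06 (SE), with an interval of -0.46 to -0.15 and an adjusted p of 0.0125 in limma. Falls of these sizes are common in the data, since 18.8% of all probes fell further than Des and 23.6% further than Nes.

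No other intermediate filament passed as lower in limma. Of 10 measured, 1 rose and 0 fell in limma at an adjusted p of 0.05, and at an unadjusted p of 0.05 the count was the same. Vimentin (Vim), the general filament of mesenchymal cells, rose by 0.61 ± 0.07 (SE), but only by 0.15 after quantile normalisation and 0.27 after cyclic loess. Synemin, listed as Dmn, a partner of desmin in filaments, stood at -0.44 (adjusted p 0.107), and Gfap, the astrocyte filament used to mark quiescent stellate cells, was dim at 1.75 ± 0.69 (SD, n = 3) in wild type and 2.21 ± 1.01 in the knockout. Synemin and Gfap are named outside the rule for naming genes, as the filaments closest to these cells.

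Of the 5 secreted markers, 3 rose. Colec11 encodes collectin 11, a soluble lectin that binds sugars on microbes and starts the lectin pathway of complement through the MASP proteases. It read 6.17, 6.07 and 6.18 in wild type and 7.65, 7.54 and 7.56 in the knockout. Both genotypes spread over 0.11, and the gap between them was 1.36. The difference was 1.44 ± 0.06 (SE), with an interval of 1.29 to 1.59 and an adjusted p of 0.000339 in limma, or 2.72-fold, and 2.50% of all probes rose further.

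Colec10 and Masp1, whose products work with collectin 11, rose as well. Of 9 other genes of the lectin pathway that were measured, 4 rose and 1 fell, with a median of 0.54 as deposited and 0.34 after quantile normalisation. Among all gene symbols, each at its brightest probe, 29.4% were higher and 14.9% lower. The count of the list varied: 3 were higher with the replicate number as a block and 5 with array weights, with 1 lower in both. Colec10, which encodes the collectin that joins collectin 11 in mixed complexes, rose from 5.60 ± 0.03 to 7.43 ± 0.10 (SD, n = 3), a difference of 1.84 ± 0.07 (SE, adjusted p 0.000291 in limma). Masp1, the gene of a protease that these lectins carry, reached 9.41 ± 0.04 (SD, n = 3) in the knockout, a rise of 1.41 ± 0.05 (SE). Mbl2, a mannose-binding lectin usually made by hepatocytes, differed by 1.35 ± 0.35 (SE) with an adjusted p of 0.0304, and passed under 11 of 15 alternative settings. The scavenger collectin gene Colec12, whose product sits in the membrane, fell by 0.75. Among all probes with a symbol, Masp1 had the profile closest to that of Colec11 over the 6 arrays, at a distance of 0.09, followed by Pls3 at 0.10 and Gstm3 at 0.12. The distance is Euclidean, on log2 values with the mean of each probe removed, so it mostly reads the size of the difference between the genotypes.

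Hepatocyte growth factor (Hgf) is made by stellate cells as a mitogen for hepatocytes. It read 10.36, 10.34 and 10.29 in wild type and 11.24, 11.25 and 11.29 in the knockout. The gap between the genotypes was 0.88, and neither spread over more than 0.07. The difference was 0.93 ± 0.05 (SE), with an interval of 0.81 to 1.05 and an adjusted p of 0.000469 in limma, or 1.91-fold. As deposited, 7.83% of all probes rose further than Hgf. After quantile normalisation the difference was 0.76. Of 7 other genes of Hgf activation and signalling that were measured, 2 rose and 0 fell in limma, while 2 further genes, Hpn and Hgfac, had an unadjusted p under 0.05 and lower means in the knockout. The count of the list depended on the setting: 2 were higher and 2 lower without the dimmest 25% of probes and with array weights. In 4 other settings (cyclic loess, the trended robust prior, without the dimmest 50% of probes and without KO replicate 3) 1 was called lower. Without the dimmest 50% of probes only 2 genes were left, 1 higher and 1 lower. Only 1 was higher and 0 lower with the replicate number as a block, or without WT 1, WT 2 or KO 2. Gab1, the docking protein of the receptor, rose by 0.37 ± 0.06 (SE), or by 0.18 after quantile normalisation, and St14, the gene of the activating protease matriptase, rose by 0.42 ± 0.09 (SE) and passed under 11 of 15 alternative settings. The receptor gene Met, named outside the rule as the receptor of Hgf, was dim at 2.82 ± 0.09 and 2.30 ± 0.73 (SD, n = 3), and its difference of -0.52 had an adjusted p of 0.325.

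Ecm1 encodes extracellular matrix protein 1, a secreted glycoprotein that in the liver holds latent transforming growth factor beta inactive. It read 11.12, 11.15 and 11.06 in wild type and 11.75, 11.69 and 11.72 in the knockout. No array of one genotype came within 0.54 of the other. The difference was 0.61 ± 0.05 (SE), with an interval of 0.49 to 0.73 and an adjusted p of 0.000905 in limma, or 1.53-fold. It was 0.44 after quantile normalisation and 0.40 after cyclic loess, and it passed under both. Rises of this size are common in the data, since 17.8% of all probes rose further than Ecm1 as deposited.

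Reelin (Reln) is a secreted glycoprotein that guides migrating neurons and is made in the liver by stellate cells. It read 5.26, 5.06 and 5.22 in wild type and 5.05, 5.03 and 5.05 in the knockout. The genotypes were separated by only 0.01, because WT 2 lay beside the knockout arrays. The difference was -0.14 ± 0.07 (SE), with an interval of -0.31 to 0.04 and an adjusted p of 0.173 in limma, so a fall of more than 0.31 lies outside the interval. Of 8 other genes of the reelin pathway, 2 rose and 1 fell. The receptor gene Vldlr fell from 6.29 ± 0.17 to 5.21 ± 0.11 (SD, n = 3), a difference of -1.08 ± 0.11 (SE) with an adjusted p of 0.00169. The adaptor genes Crk and Crkl rose by 0.82 and 0.80, and Crk by 0.60 after quantile normalisation. The median of that list was 0.04 as deposited and -0.08 after quantile normalisation or cyclic loess.

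Angptl6 encodes an angiopoietin-like growth factor. It read 5.07, 4.67 and 5.07 in wild type and 5.21, 5.23 and 5.34 in the knockout. The knockout arrays were all higher, and WT 2 stood apart from the other wild-type arrays. The difference was 0.32 ± 0.13 (SE), with an interval of -0.01 to 0.66 and an adjusted p of 0.105 in limma. Without WT replicate 2 the difference was 0.19, with an adjusted p of 0.114. In its family and among the angiopoietins, 1 of 7 rose and 2 fell. Angptl2 fell from 5.99 ± 0.09 to 4.73 ± 0.18 (SD, n = 3), a difference of -1.26 ± 0.11 (SE), whereas Angpt1, the ligand that stabilises vessels, rose by 0.39 and its antagonist Angpt2 fell by 0.25. Angpt1 passed under 13 and Angpt2 under 15 of 16 alternative settings. The family median was -0.76, but -0.49 without KO replicate 3. It was -0.25 without the dimmest 25% of probes, a setting that keeps 5 of the 7 genes and drops Angptl1 (-0.79) and Angptl7 (-1.73). Neither of these passed, nor did Angptl4 (-0.76), which lies at the middle of the full list. These 3 genes are named outside the rule.

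Both receptor markers were below the array median on all arrays, and neither passed. Ngfr encodes the p75 neurotrophin receptor, a member of the tumour necrosis factor receptor family found on stellate cells in fibrosis. It read 3.79, 3.38 and 3.56 in wild type and 3.61, 3.37 and 3.59 in the knockout. The genotypes overlapped, and the difference was -0.06 ± 0.13 (SE), with an interval of -0.39 to 0.28 and an adjusted p of 0.769 in limma. A difference within that interval cannot be told from none here. Without WT replicate 1 the sign turned, at 0.05, and without KO replicate 2 it was 0.02, neither past the threshold.

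Bdnf and Ntrk2 led the falls among genes of neurotrophin signalling. Of 7 other neurotrophin genes measured, 0 rose and 4 fell in limma at an adjusted p of 0.05, with the same counts at an unadjusted p of 0.05. Among all gene symbols, 29.4% were higher and 14.9% lower. Bdnf, brain-derived neurotrophic factor, which binds p75, fell from 9.10 ± 0.03 to 7.38 ± 0.02 (SD, n = 3), a difference of -1.72 ± 0.04 (SE) with an adjusted p of 0.000214. Its kinase receptor gene Ntrk2 fell from 7.48 ± 0.08 to 6.61 ± 0.07 (SD, n = 3), a difference of -0.88 ± 0.07 (SE). Nradd, a relative of p75, and Ngfrap1, a small protein that binds it, fell by 0.50 and 0.18, and passed under 15 and 10 of 16 alternative settings.

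Vipr1 encodes the receptor VPAC1 for vasoactive intestinal peptide. It read 1.82, 1.48 and 2.65 in wild type and 3.89, 2.80 and 3.15 in the knockout. All knockout arrays were higher, but by a gap of only 0.16, and each genotype spread over more than 1 log2 unit (1.17 and 1.09). The difference of 1.30 ± 0.42 (SE) had an interval of 0.23 to 2.37 and an adjusted p of 0.059 in limma, so it just missed the threshold. It passed in 4 of 14 alternative settings, among them without WT replicate 3, where it was 1.63 with an adjusted p of 0.0372. With a linear offset, which damps differences near the background, it was 0.93. Of 9 other ligands and receptors of the family, 1 rose and 1 fell: the secretin receptor gene Sctr rose by 0.60 ± 0.10 (SE), and Gipr, the receptor for the gut hormone GIP, fell by 0.74. The peptide gene Vip itself was dim, with a difference of -0.39 and an adjusted p of 0.617, and is named outside the rule.

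**Figure D2:**
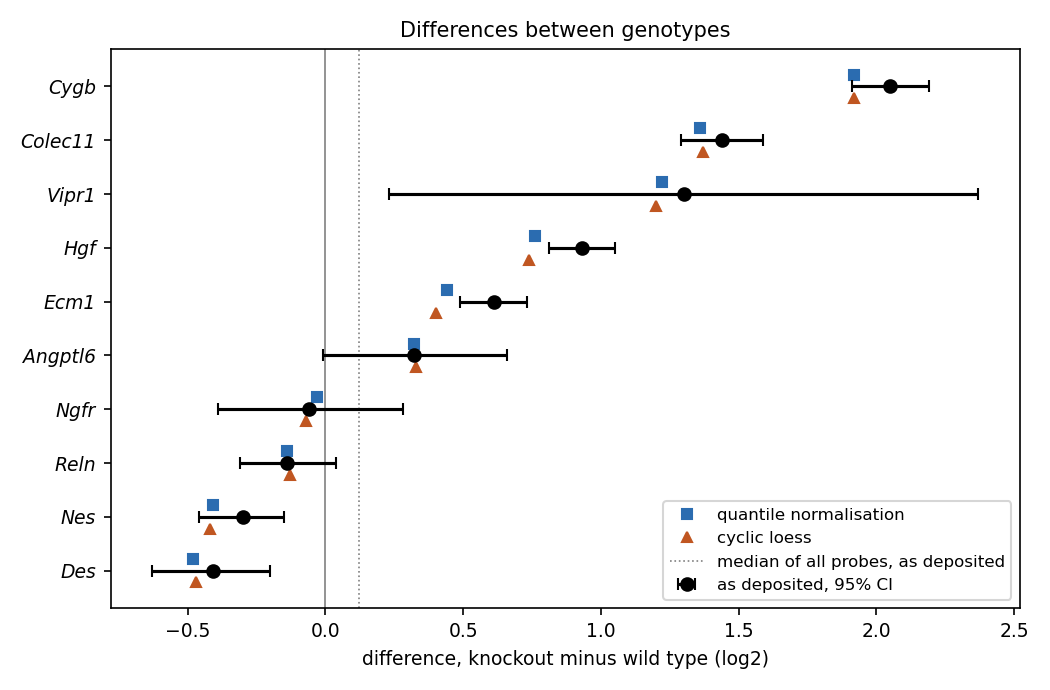
Difference between genotypes for the 10 markers (knockout minus wild type, log2). Black points and bars are the deposited values with the 95% confidence interval from limma, blue squares the values after quantile normalisation and orange triangles after cyclic loess; the dotted line is the median of all probes, 0.12. Rescaling lowered Hgf from 0.93 to 0.76 and 0.74, and Ecm1 from 0.61 to 0.44 and 0.40, and moved Nes from -0.30 to -0.41 and -0.42, without turning any of the 10.

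The order of the markers by difference was Cygb, Colec11, Vipr1, Hgf, Ecm1, Angptl6, Ngfr, Reln, Nes and Des. The change of a marker relative to another, taken within each array, is free of an offset shared by all probes, though not of a scale difference that varies with signal. Cygb rose further than Colec11, by 0.61 ± 0.04 (SE, n = 3 and 3), and Hgf rose further than Ecm1, by 0.32 ± 0.03. Relative to Des, Cygb rose by 2.47 ± 0.08 and Ecm1 by 1.02 ± 0.08. The change of Des relative to Nes was -0.11 ± 0.06, with the knockout arrays at -0.22 to -0.05 and the wild-type arrays at -0.03 to 0.06 around their mean. These pairs were chosen after the values were seen, and the errors are those of 3 arrays a genotype. Besides Masp1, the probes most like a marker over the 6 arrays were Slc43a3 (distance 0.15), Col3a1 (0.18) and Cfd (0.19) for Cygb. Col3a1, a chain of fibrillar collagen III, rose by 2.09 and the complement protease gene Cfd by 2.11, beside 2.05 for Cygb. For the noisy Vipr1 they were the dim probes of Ccdc73 (0.47), Gpr173 (0.57) and Nfe2l3 (0.58).

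Further stellate cell markers went both ways, more of them up. Of 17 measured, 9 rose and 2 fell, with a median of 0.40, and after quantile normalisation 7 rose and 2 fell with a median of 0.23. Over all gene symbols, each at its brightest probe, 29.4% were higher and 14.9% lower as deposited. Lrat, the enzyme that makes the retinyl ester store, differed by 2.41 ± 0.16 (SE), the pericyte gene Rgs5 by 0.99, the subunit gene of the nitric oxide receptor Gucy1a3 by 0.84 and the transcription factor gene Hand2 by 0.83. All 4 rose in limma, with adjusted p-values of 0.00065, 0.000469, 0.000565 and 0.00104. The 2 that fell, named outside the rule, were Pparg by 0.56 (adjusted p 0.0114 in limma) and Ednrb by 0.45 (0.00236). Each of these falls passed under 16 of 16 alternative settings. Earlier results of these data were known when the list was made, so it is no independent support.

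**Figure D3:**
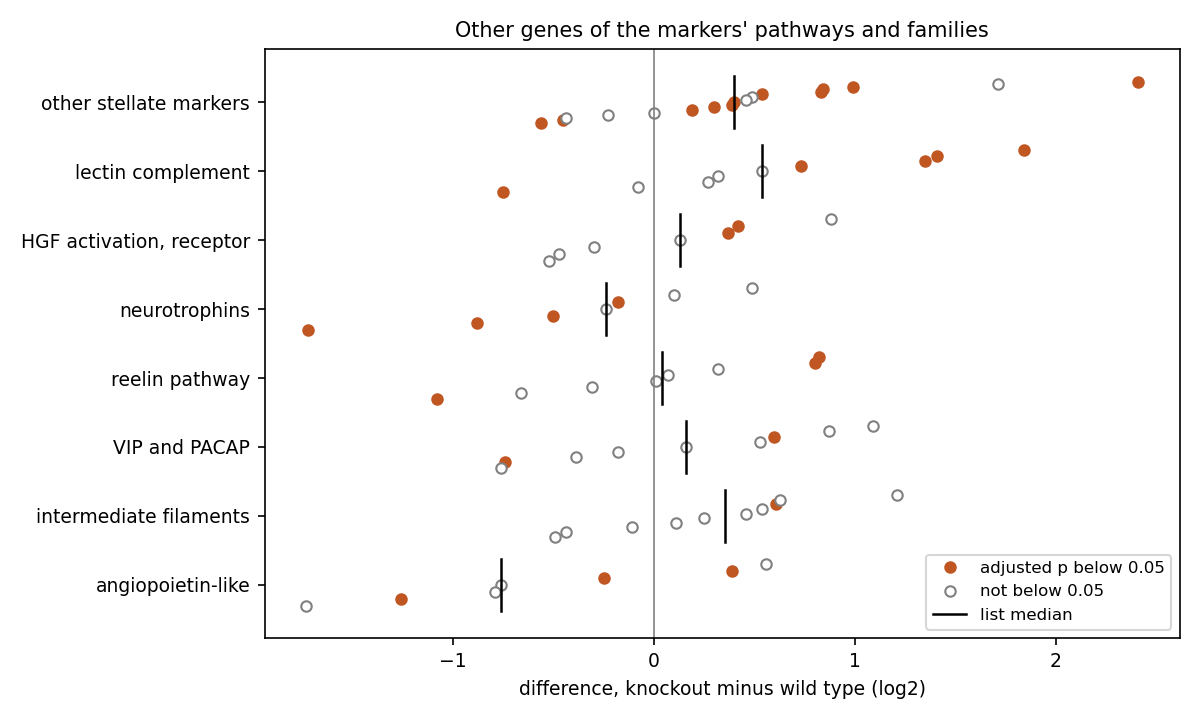
Differences between genotypes (knockout minus wild type, log2) of the other genes in 8 lists built around the markers, 1 point a gene at the probe with the highest mean. Filled orange points passed an adjusted p of 0.05 in limma, open points did not, and the black line is the list median. Lectin complement genes lie mostly to the right (median 0.54), neurotrophin and angiopoietin-like genes mostly to the left (medians -0.24 and -0.76).

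Markers of other liver cells were present beside these results, and their part in them was not tested. Of 11 hepatocyte genes 3 rose and 1 fell, and the log2 of their summed signal was 10.59 to 10.62 in wild type and 10.70 to 10.74 in the knockout. Fgb, the brightest, differed by 0.03, and Ttr fell by 0.42, while albumin (Alb1), named after its value was seen, rose by 0.88. Of 9 macrophage genes 1 rose and 1 fell, with sums of 11.16 to 11.28 and 11.19 to 11.22, and their brightest, Marco and Cd68, differed by -0.07 and 0.17 without passing, although Marco passed as lower after quantile normalisation (-0.25, adjusted p 0.00667). Endothelial genes gave 2 rises and 1 fall of 9, with sums of 8.47 to 8.57 and 8.30 to 8.42, with Flt1 at -0.86 and Kdr at -0.02. Among 5 cholangiocyte genes only Spp1, which stellate cells also make, fell, by 1.26, and Cldn7 differed by 0.33 without passing. The sums were 10.12 to 10.25 and 9.06 to 9.14. Signals are summed on the linear scale, so the brightest gene weighs most in every such sum. Here that gene is Spp1, with means of 10.12 in wild type and 8.86 in the knockout. Of 7 lymphocyte genes 1 rose and 2 fell, with sums of 7.26 to 7.37 and 7.28 to 7.52. Ptprc differed by 0.10 without passing, and Cd4 fell by 0.50, a call that held under 9 of 15 alternative settings and was lost after quantile normalisation (adjusted p 0.0582) and cyclic loess (0.052). The calls on both genes that fell, Cd4 and Cd8a, were lost without WT replicate 1, WT replicate 2 or KO replicate 2. Of 10 portal fibroblast and mesothelial genes 1 rose and 3 fell, with sums of 8.64 to 8.73 and 8.06 to 8.20. Thy1 fell by 2.24, from 7.26 to 5.02, which weighs heavily in those sums. Eln differed by 0.05 without passing. None of the genes in these lists sat at the floor of every array, though some did on part of the arrays. Cd3g, the lymphocyte gene that rose, did so on 2 wild-type arrays, and Vwf, an endothelial gene that rose, on 1. Both are named outside the rule. Cd3g passed under 13 of 13 alternative settings and Vwf under 5 of 13. Of 10 myofibroblast genes 2 rose and 8 fell, with a median of -1.02 and sums of 15.86 to 16.02 and 15.70 to 15.73. Acta2, smooth muscle actin, fell by 0.56, and Col3a1 rose. Desmin and nestin moved with the larger part of that list, and Cygb, Colec11, Hgf and Ecm1 against it.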

How the data were processed

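Total RNA of hepatic stellate cells was hybridised to 6 single-colour (Cy5) arrays, and the deposited table gives 23473 probes. Its values are taken as log2 signals that the authors had quantile normalised, per the labels; the log base is inferred from their range, and the arrays share a median but not their tails. The protocol text mentions tumour tissue and a kit for microRNA, unlike the design. The sources used here do not name the scanner or the background correction. Probes were named from the platform annotation, in which 16631 had 1 symbol.

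Knockout minus wild type was estimated in limma 3.58.1 (R 4.3.3; lmFit, eBayes) on the deposited values without further normalisation, two-sided, with 4 residual and 1.11 prior degrees of freedom. The code of the fit was run on simulated data with independent noise and few changed probes. That setting lacks the scale difference and the many calls of these data, so it cannot speak to their limits. In lists, the probe with the highest mean stood for a gene, and no list was tested as a set. The share to set beside the count of any list is 29.4% higher and 14.9% lower among all gene symbols. List genes named are up to 4 that passed, by size of difference, or of other cell types the 2 brightest. Exceptions are stated where the gene is named, except for Ngb, Hpn, Hgfac and Cd8a, which are also outside this rule. The members and lists were chosen with earlier results of these data known. Alternatives were quantile normalisation, cyclic loess, leaving out the dimmest 25% or 50% of probes or those at an array's lowest value, a trended robust prior, weighting of arrays, a block for the replicate number, dropping each array, a linear offset (10th percentile) and the mean of a gene's probes. The number of arrays limits the precision. Figures were drawn with matplotlib 3.10.9.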

Additional observations from a re-analysis of the deposited data

How the results depend on the processing

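Cygb, Colec11, Hgf, Ecm1 and Des kept their direction and passed under all 16 alternatives, with ranges of 1.92 to 2.08, 1.36 to 1.47, 0.74 to 0.95, 0.40 to 0.63 and -0.48 to -0.35. Nes ranged from -0.42 to -0.27 and passed in 15. Reln passed in 0 of 16 and Ngfr in 0 of 15. Angptl6 passed in 2 of 16, without the dimmest 50% of probes (adjusted p 0.0122) and with the trended robust prior (0.0305). Vipr1 passed with that prior (0.0135), with array weights (0.0494), without probes at the floor of an array (0.0478) and without WT replicate 3. The number of markers that passed was 6 to 7 when 1 array was left out, that of genes in the other lists 49 to 54, and that of all probes 7954 to 9082. With the replicate number as a block, 7724 probes passed, and 4 markers were higher and 1 lower, with Nes at an adjusted p of 0.0622. No pairing by number was seen: same-numbered arrays had residual correlations of 0.008, -0.001 and -0.002. The labels do not say how the arrays were handled, so these values cannot exclude a pairing. Of the calls among all probes, 62.6% were higher as deposited, 52.5% with quantile normalisation and 51.5% with cyclic loess. No call on the 133 other listed genes turned its direction under any alternative, while 80 of 2013 gene and setting pairs lost a call and 44 gained one. Low signal limits the statements on Vipr1 and Ngfr, which lie in the band of 2 to 4, where the median SE of a difference was 0.31 against 0.11 at 4 to 6 and 0.07 at 6 to 8.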
